A study of Saccharomyces cerevisiae with 2 samples.

Results

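The genes of the small (40S) ribosomal subunit proteins of budding yeast, Saccharomyces cerevisiae, were described here by the ratio of nucleosomal to genomic DNA at their upstream and coding probes. Members were the nuclear genes whose name on the array is RPS followed by a number and, where a gene has copies, A or B, also where such a name is one side of a divergent promoter. This gave 56 of the 5670 gene names on the array: 24 pairs of A and B copies and 8 single-copy genes, on 14 of the 16 nuclear chromosomes. They carried 158 upstream probes on all 56 genes, 124 coding probes on 51 genes and 33 downstream probes on 23 genes. RPS26A, RPS28A, RPS28B, RPS29A and RPS29B had no coding probe.

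Ribosomal protein genes are among the most heavily transcribed genes of growing yeast, and their mRNAs are made in step with ribosomal RNA. Most of their promoters are bound by Rap1, which recruits Fhl1 and Ifh1, and many also by the high mobility group protein Hmo1. Promoters of highly transcribed genes are known for stretches poor in nucleosomes, whereas coding regions are packaged by ordered nucleosomes. The proteins themselves assemble with 18S ribosomal RNA into the head, body and platform of the subunit, where mRNA is decoded.

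Cells were arrested in G1 by the mating pheromone alpha factor. Their chromatin was digested with micrococcal nuclease, which cuts DNA between nucleosomes, and this DNA, labelled nucleosomal, was hybridised in Cy5. DNA from sonicated chromatin, labelled genomic, was hybridised in Cy3 on the same array, after linear amplification of the DNA. There were 2 such arrays, replicates 1 and 2, of 1 group in 1 dye orientation. No strain, no genotype and no other condition was given in the labels used here, and nothing said whether the arrays came from separate cultures. The p-values therefore rest on how far the arrays spread, which may be technical.

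Each value below is log2 of processed Cy5 over processed Cy3 intensity, centred on the array's median over all probes, so a value above 0 means a higher ratio of the DNA labelled nucleosomal to that labelled genomic than at the median probe. Of the 41775 probes on each array 41454 were kept, among them all 158 upstream and 122 of the 124 coding probes of the RPS genes. The arrays differed at RPS upstream probes with an SD of 0.086 (log2), and the widest such difference was 0.39. The 222 probes of mitochondrial DNA, which carries no histones, had a median of 4.50, so the values were not read as amounts of nucleosomes and are given as ratios of the channels as labelled. Whether the channel labels are right was not settled here, and that bears on what every ratio means. Cy5 was saturated on both arrays at 5 upstream, 5 coding and 2 downstream probes of RPS genes, whose ratios are lower bounds, and Cy3 was saturated at none.

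Upstream of the RPS genes the ratio was high. The mean over a gene's upstream probes passed the test above 0 at 53 of 56 genes, below 0 at 1 gene and in neither direction at 2 genes (limma, adjusted p under 0.05). Among all 5194 genes with upstream probes 76.9% passed above 0 and 19.8% below. The median of the RPS genes was 1.64 (1.64 on replicate 1 and 1.65 on replicate 2), against 0.82 for the 5138 other genes. The lower and upper quartiles were 0.77 and 2.41 in RPS genes, against 0.12 and 1.61 in other genes. With the nearest upstream probe alone, 40 RPS genes passed above 0 and 14 below, and the median was 1.62. By sign alone, 41 of 56 RPS genes lay above 0 at that probe, against 3511 of 5106 other genes, whose median was 0.68. The shares above 0 at the nearest probe were thus close, while the medians differed.

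**Figure D1:**
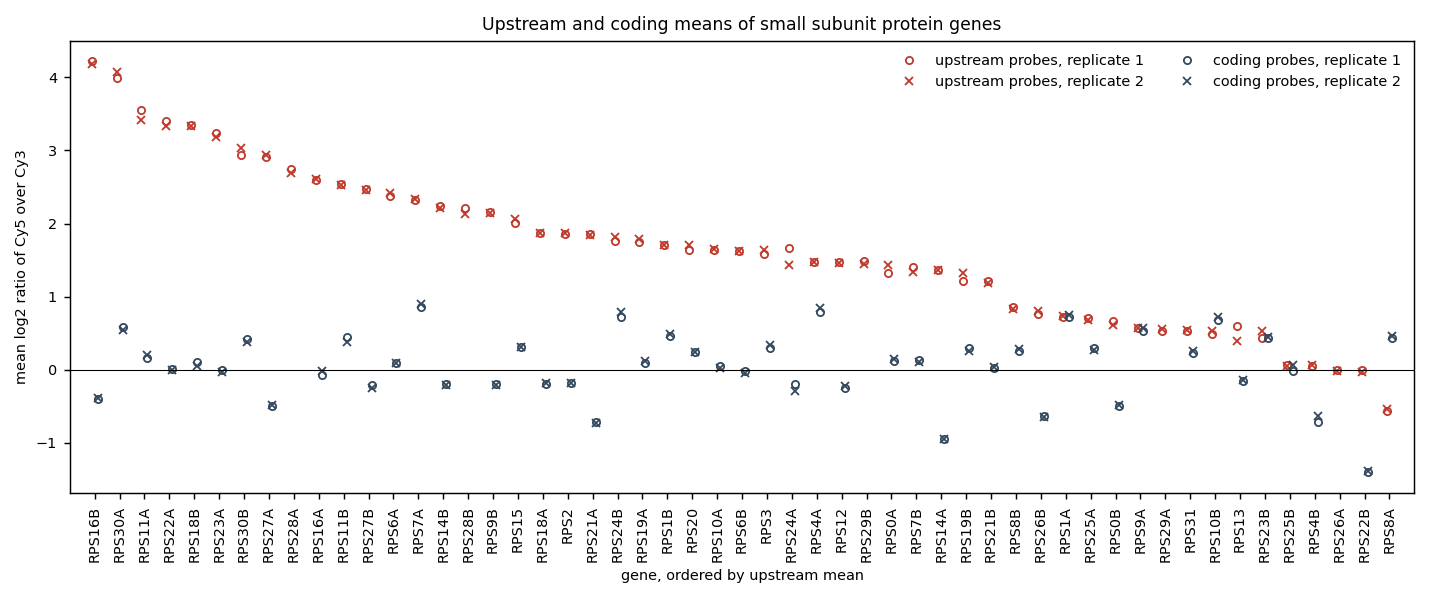
Mean log2 ratio of Cy5 over Cy3 (vertical axis) of the upstream probes (red) and the coding probes (grey blue) of each of 53 RPS genes, ordered by the upstream mean, with replicate 1 as circles and replicate 2 as crosses. Upstream means run between 4.20 at RPS16B and -0.55 at RPS8A, while coding means stay between 0.88 and -1.40.

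The highest upstream mean belonged to RPS16B, which codes for a head protein whose tail reaches the tRNA in the peptidyl site. It measured 4.22 and 4.18 on replicates 1 and 2 (mean 4.20 ± 0.027, SD, n = 2; limma adjusted p 1.44e-07). RPS30A, a body protein gene whose mammalian counterpart is made as a fusion to a ubiquitin-like protein, followed with 3.99 and 4.07 at its single upstream probe. In both the arrays lay far closer to each other than to 0.

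RPS11A, for a body protein, had 3.55 and 3.42. RPS22A, for a body protein that binds the central domain of 18S ribosomal RNA, had 3.41 and 3.34. RPS18B, for a head protein that touches the large subunit, had 3.36 and 3.34, a lower bound, since Cy5 was saturated at 1 of its 2 probes. Each of these 5 genes measured above 3 on both arrays. In this order their values did not overlap, except that the lower bounds of RPS18B lay between the values of RPS22A. After normexp background correction of the raw intensities RPS16B stood at 2.90, RPS18B at 2.71, RPS22A at 2.57 and RPS11A at 2.48. Their level above 3, and the order of RPS11A, RPS22A and RPS18B, thus depended on the processing.

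At the other end stood RPS8A, for a body protein, whose single upstream probe measured -0.57 and -0.54 (mean -0.55 ± 0.023, SD, n = 2; limma adjusted p 7.13e-06). It was the RPS gene that passed below 0, and it lay above 0 after normexp background correction of the raw intensities (0.17). RPS22B measured -0.0095 and -0.025 over 7 probes, and RPS26A -0.0037 and -0.011 at 1 probe, and neither passed the test (limma adjusted p 0.35 and 0.68). Both passed below 0 after loess normalization (-0.24 for RPS22B and -0.41 for RPS26A).

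RPS4B measured 0.052 and 0.064 upstream, and RPS25B 0.072 and 0.056. RPS23B, for the protein next to the decoding centre, measured 0.44 and 0.53. These 3 passed above 0, but the sign depended on the probes and the centring taken. RPS4B was at -0.39 and RPS23B at -0.48 with the nearest probe alone, and without centring RPS4B was at -0.069 and RPS25B at -0.064.

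The 8 single-copy genes all passed above 0 upstream, with a median of 1.65. RPS15, for a head protein needed for export of the subunit from the nucleus, had 2.01 and 2.07, and RPS2, for a protein that affects the accuracy of decoding, had 1.86 and 1.87. The 2 genes did not overlap, but their order turned with the nearest probe alone, at 0.59 for RPS15 and 3.38 for RPS2.

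RPS20, for a head protein, measured 1.64 and 1.71, and RPS12, for a protein of the head's beak, 1.48 and 1.46. RPS3, for the protein at the channel through which mRNA enters, had 1.59 and 1.64. These are lower bounds, since Cy5 was saturated on both arrays at the upstream probe farthest from RPS3. The order of RPS20 and RPS3 can therefore not be read, and their difference was not tested. RPS31, made as a fusion of ubiquitin and a beak protein, had 0.54 and 0.55, and RPS13, for a protein that binds 18S ribosomal RNA, had 0.60 and 0.40. The values of RPS31 lay between those of RPS13, whose nearest probe alone was below 0 (-0.64). After normexp correction neither RPS31 (0.30) nor RPS13 (0.60) passed the test.

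By place in the subunit, the 22 genes of 14 head proteins all passed above 0, with a median of 1.66 and a range of 0.064 to 4.20. Of the 34 genes of 18 body and platform proteins 31 passed above 0, 1 below and 2 in neither direction, with a median of 1.59 and a range of -0.55 to 4.03. The medians were close and the ranges overlapped almost fully. By copy, the 24 A genes had a median of 1.81 and the 24 B genes 1.42.

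Of the 56 upstream regions 33 lay between divergently transcribed genes, and 4 of these joined an RPS gene to another gene of the cytosolic ribosome. RPS16B shares its region with RPL13A (chromosome 4, probes between bases 307860 and 308113), RPS16A with RPL13B (chromosome 13, 551386 to 551881), RPS22A with RPL39 (chromosome 10, 75410 to 75855) and RPS15 with the stalk protein gene RPP2A (chromosome 15, 253653 to 254147), in the coordinates of the array's annotation. The sources used here give no genome build for them. The means of these regions were 4.20, 2.60, 3.37 and 2.04, with a median of 2.99. The 33 divergent regions together had a median of 1.61 and the 23 tandem ones 1.68, against 0.85 and 0.79 for divergent and tandem regions of other genes.

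Within the 4 shared regions the ratio was not even. Over RPS16B and RPL13A the probe nearer to RPS16B measured 3.30 and 3.29, and the one nearer to RPL13A 5.14 and 5.08, the highest of any RPS upstream probe. At that probe the processed intensities were 1580 and 1658 in Cy5, against 48.8 and 53.8 in Cy3. Over RPS16A and RPL13B the 3 probes averaged 0.62 nearest to RPS16A, then 3.19, and measured 3.94 and 4.06 nearest to RPL13B. Over RPS22A and RPL39 they averaged 2.58, 3.70 and 3.84 in the same order, and over RPS15 and RPP2A 0.59 and 3.49. In each of the 4 regions the probe farthest from the RPS gene, and so nearest to its partner, was the highest.

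By the highest probe, other divergent regions of 2 probes showed the same side, as at RPS4B, RPS14B, RPS23A, RPS23B, RPS27B, RPS28A and RPS29B. Longer ones differed, with the farthest probe highest at RPS10B and RPS29A and the nearest at RPS1B, RPS2, RPS3, RPS4A and RPS21B. In still others a probe between them was highest. The means of the 2 sides, which are another measure, showed no common side. In the 26 regions with a partner outside the ribosome and probes on each side of the middle, the side next to the RPS gene was higher on both arrays in 12 and the partner's side in 14. The medians were 1.13 on the RPS side and 1.08 on the partner's side. RPS1B, whose partner TEM1 is a GTPase of mitotic exit, had 3.60 and 3.57 on its own side, against -0.67 and -0.67 on that of TEM1. RPS29B went the other way, with -0.80 and -0.76 on its own side, against 3.76 and 3.64 on that of TSR1, a ribosome assembly factor. These 2 regions were singled out after their values were seen.

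High ratios were often held by 1 or 2 probes of a region. Of the 158 upstream probes 115 (72.8%) passed above 0 and 39 (24.7%) below, where 65.3% of upstream probes of other genes passed above 0 and 30.8% below. Over all kept probes, most of them coding, 46.9% passed above 0 and 47% below. A value over 2 was reached by 62 RPS upstream probes (39.2%, against 20.5% of upstream probes of other genes), and a value over 3 by 37 (23.4%, against 8.16%). The highest probe of a region exceeded 2 at 43 of 56 RPS genes (76.8%), against 42.3% of other genes. RPS genes had a mean of 2.82 upstream probes and other genes 2.41, which by itself gives more chances for a high probe. In the 46 RPS genes with 2 or more upstream probes the highest and lowest differed by a median of 2.96. The same difference had a median of 2.20 in other genes.

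RPS0B, for the yeast relative of the mammalian laminin receptor precursor, had the widest span. Its nearest probe measured -1.41 and -1.58, the second 4.05 and 4.04, and the third -0.64 and -0.64 (chromosome 12, 242188 to 242247, 241758 to 241817 and 241598 to 241657). RPS7A, whose region of 6 probes is shared with RKI1, an enzyme of the pentose phosphate pathway, had its peak at the second probe (4.71 and 4.73) beside 3.77 and 3.71 at the third. Its nearest probe measured 1.26 and 1.25, the fourth 0.88 and 0.85, and the sixth, farthest from the gene, 2.90 and 2.94.

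RPS26B, for a protein at the mRNA exit channel, had its high probes far from the gene: the 2 probes nearest to it measured -0.27 and -0.23, and -0.31 and -0.29, whereas the third, about 816 bp upstream, had 3.79 and 3.75, and the sixth, saturated in Cy5 on both arrays, at least 2.55 and 2.61. These probes lie in the region shared with YER130C. RPS3 combined a high nearest probe (4.07 and 4.09) with a low second one (-0.36 and -0.34) and with 2.94 and 2.93 at the fifth. RPS22B held no value over 1.6 at any of its 7 probes, and the mean over both arrays was -1.35 at its nearest probe and -1.33 at the second.

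**Figure D2:**
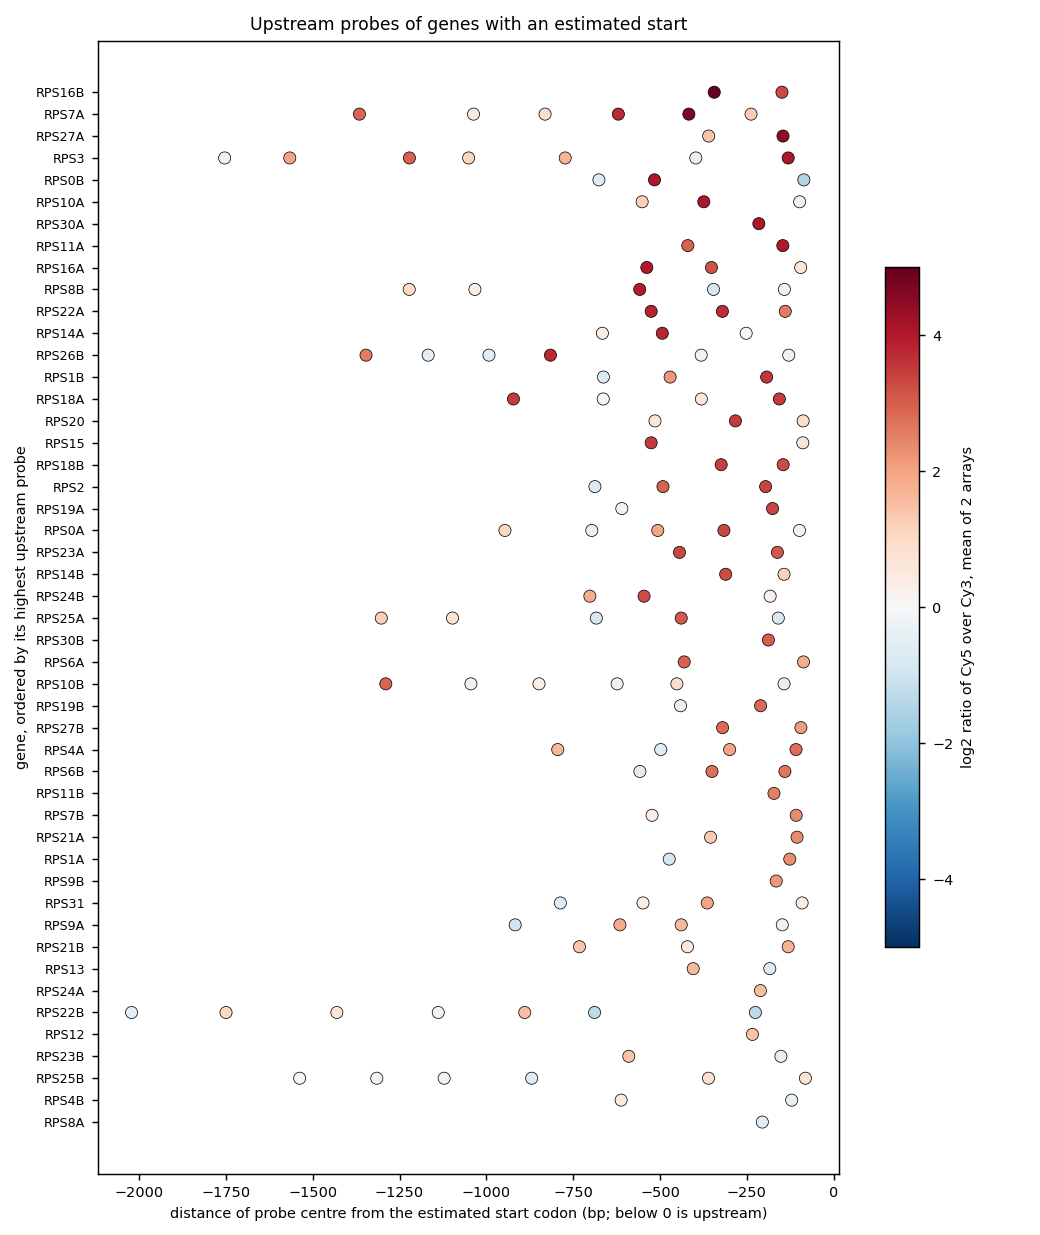
Every kept upstream probe of 48 RPS genes with an estimated start, placed by the distance of its centre from that start (horizontal axis, in bp) and coloured by its log2 ratio, averaged over both arrays. The darkest red probes, such as the second probe of RPS16B at 5.11, lie mostly between the start and about 600 bp upstream, and low probes lie beside high ones in the same gene.

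Starts of genes were estimated as the midpoint between the last upstream and the first coding probe, which were a median of 221 bp apart, so positions are coarse. The RPS median was 2.09 within 200 bp upstream of the start (43 probes), 2.0 between 200 and 400 bp (28 probes) and 1.98 between 400 and 600 bp (29 probes), and then 0.29 between 600 and 800 bp (19 probes). In other genes the same distances gave 0.71, 0.70, 0.58 and 0.47. Within 200 bp downstream of the start the RPS median was 0.087 and that of other genes -0.028. The medians of RPS and other genes thus lay apart over the first 600 bp upstream and close together just past the start.

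Counted from the gene, the nearest RPS upstream probe had a median of 1.62 (56 genes), the second 2.49 (46 genes), the third 0.89 (26 genes) and those farther 0.54 (30 probes). Other genes gave 0.68, 0.65, 0.49 and 0.34. The second probe was higher than the nearest on both arrays in 31 of 46 RPS genes (67.4%), against 51.8% of 3182 other genes. The highest probe was the second one in 25 of these 46 genes (54.3%), against 38.6% of 3211 other genes. The distance of the highest probe was close in both, a median of 364 bp upstream in RPS genes with 2 or more probes and 350.5 bp in such other genes.

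**Figure D3:**
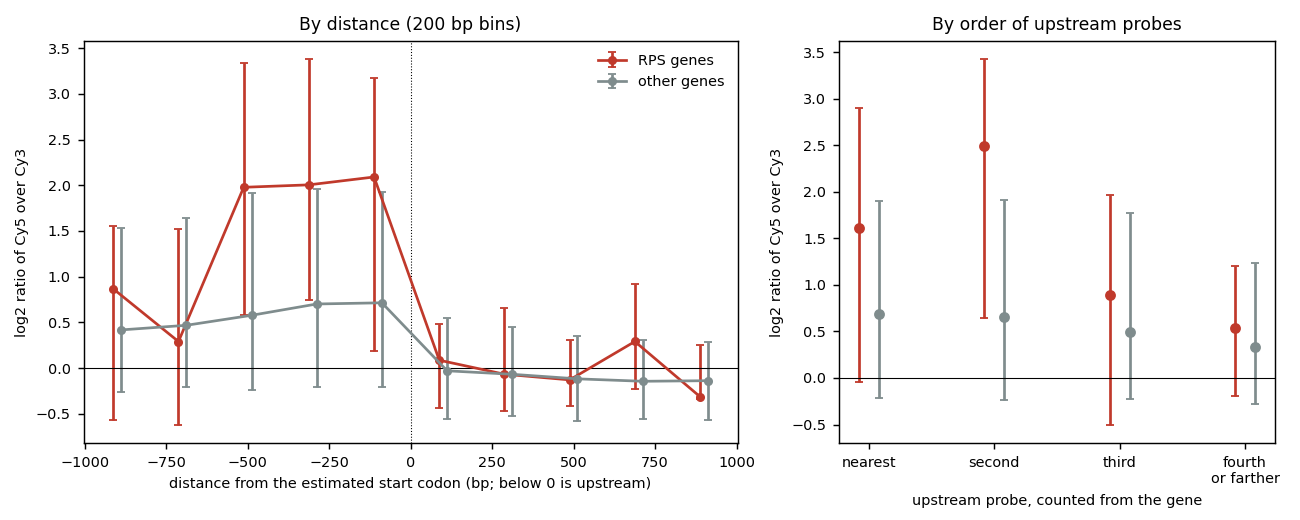
Median log2 ratio of Cy5 over Cy3 in 200 bp bins of distance from the estimated start (left) and by order of the upstream probes counted from the gene (right), for RPS genes (red) and other genes (grey), with bars from the lower to the upper quartile of probes. RPS medians lie near 2 in the first 600 bp upstream and close to those of other genes in the first 600 bp past the start. Between 600 and 800 bp past it the medians are 0.29 in RPS genes and -0.14 in other genes. The second probe has the highest RPS median by order at 2.49.

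In coding regions the RPS genes lay near the array's median. Of 51 genes 30 passed above 0, 17 below and 4 in neither direction, with a median of 0.11, while 38.3% of all 5469 genes passed above 0 and 55.6% below, with a median of -0.082. Without centring the RPS coding median turned to -0.021, and after loess it was 0.031. The counts above and below 0 were 22 and 25 without centring, 24 and 23 after loess, and 19 and 9 after normexp correction, so the majority above 0 depended on the scaling. Shares of all genes under these settings are not given here, so the shifts cannot be read as particular to RPS genes. None of the 122 kept coding probes exceeded 2, but only 0.61% of the 29934 coding probes of other genes did, so this says little about RPS genes. Coding copies of a pair can be nearly identical in sequence, so a coding probe may take up DNA of both copies.

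RPS7A, for a body protein, had the highest coding mean with 0.86 and 0.89, in which its 3 probes averaged 0.26, 0.92 and 1.46 along the gene. RPS4A, for a body protein, had 0.79 and 0.84, RPS24B, for a body protein, 0.73 and 0.78 at 1 probe, and RPS1A, for a platform protein, 0.72 and 0.74. All of them passed above 0 (limma), and RPS4A overlapped neither RPS24B nor RPS1A on either array.

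RPS22B had the lowest coding mean with -1.41 and -1.39 (mean -1.40 ± 0.013, SD, n = 2; limma adjusted p 7.61e-10). Its intron hosts a small nucleolar RNA, and introns were not told apart from exons in the array's annotation. At its lower probe the processed intensities were 77.1 and 81.4 in Cy5, against 303 and 309 in Cy3, and after normexp correction its coding mean turned to 1.26. RPS14A, for a platform protein, had -0.94 and -0.95, RPS21A -0.72 and -0.73, and RPS4B -0.71 and -0.64.

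Coding means of the single-copy genes ran between -0.24 and 0.32. Their quartiles, -0.15 and 0.30, were close to those of all RPS genes, -0.19 and 0.32. Single probes spread wider, with -1.19 and 0.72 at RPS12. RPS3 measured 0.30 and 0.34, RPS15 0.31 and 0.31, RPS20 0.24 and 0.24, and RPS31 0.23 and 0.25, all above 0. RPS13 had -0.15 and -0.14, RPS2 -0.19 and -0.18, and RPS12 -0.25 and -0.22, all below 0. Loess turned RPS15 (-0.047) and RPS31 (-0.0036), and normexp correction turned RPS2 (0.021). RPS20 (0.016) and RPS13 (-0.19) did not pass after normexp correction.

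Set against its own coding probes on the same array, the upstream mean was higher in 45 of 51 RPS genes, lower in 2 and not different by the test in 4 (limma), where 77.9% of 5010 genes were higher and 18.8% lower. The median difference was 1.61 in RPS genes and 0.92 in other genes. RPS16B differed most, by 4.62 and 4.56. RPS8A went the other way, by -1.01 and -0.99, and so did RPS10B, for a beak protein, by -0.19 and -0.20. Neither of these 2 passed after normexp correction. Where the nearest upstream probe stood for the region, 10 RPS genes were lower. The share of all genes for that setting is not given here. The count of 2 lower genes thus depended on the upstream probes taken. With all upstream probes, the 4 genes that did not pass were RPS1A, RPS9A, RPS23B and RPS25B.

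The A and B copies of a pair code for the same or nearly the same protein, yet their upstream ratios differed. Both copies were above 0 in 21 of 24 pairs. A was higher in 15 pairs and B in 9, and all 24 differences passed the test (limma). Of the 60 pairs of genes on the array whose names differ in a last A or B 98.3% passed, 60% with A higher and 38.3% with B higher, so the sizes say more than the calls. The median size was 0.95, against 0.78 in the 36 other pairs, and 10 RPS pairs differed by more than 1. Across the 24 pairs the upstream means of the copies had a Pearson r of 0.29 and a Spearman rho of 0.28. After normexp correction the arrays differed from each other with an SD of 0.39 over all kept probes, against 0.065 as processed, and none of the 24 pairs passed in either direction.

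RPS22 had the largest difference: RPS22A measured 3.41 and 3.34, against -0.0095 and -0.025 in RPS22B (A minus B 3.39 ± 0.039, SD, n = 2; limma adjusted p 1.61e-06). In RPS23 the A copy had 3.24 and 3.18 and the B copy 0.44 and 0.53, a difference of 2.73. The copies did not overlap in either pair.

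Next in size were 3 pairs with B on top. In RPS16 the A copy had 2.60 and 2.61 and the B copy 4.22 and 4.18, a difference of -1.60. In RPS9, for a protein that affects the accuracy of decoding, the A copy had 0.57 and 0.57 and the B copy 2.15 and 2.15, a difference of -1.58. In RPS18 the A copy had 1.88 and 1.88 and the B copy 3.36 and 3.34, a difference of -1.47, which turned to 0.25 with the nearest probe alone. The nearest probe of RPS18B is the saturated one, so its values are lower bounds.

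The pairs most alike upstream were RPS24, RPS27, RPS19 and RPS28. RPS24A had 1.67 and 1.44 and RPS24B 1.76 and 1.82, a difference of -0.23 ± 0.21 (SD, n = 2; limma adjusted p 0.046), which turned to 1.31 within 500 bp. RPS27A had 2.92 and 2.94 and RPS27B 2.47 and 2.45, a difference of 0.47. RPS19A, the counterpart of a human gene mutated in Diamond-Blackfan anaemia, had 1.74 and 1.79 and RPS19B 1.21 and 1.32, a difference of 0.50. RPS28A had 2.75 and 2.69 and RPS28B at least 2.21 and 2.13, since its single upstream probe reached Cy5 saturation on either array. The difference was at most 0.55, and at most -0.49 with the nearest probe. The copies of RPS24, RPS27 and RPS19 did not overlap. On replicate 1 the copies of RPS24 differed by -0.084, less than RPS24A differed between the arrays. For RPS28 overlap cannot be read from a lower bound.

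**Figure D4:**
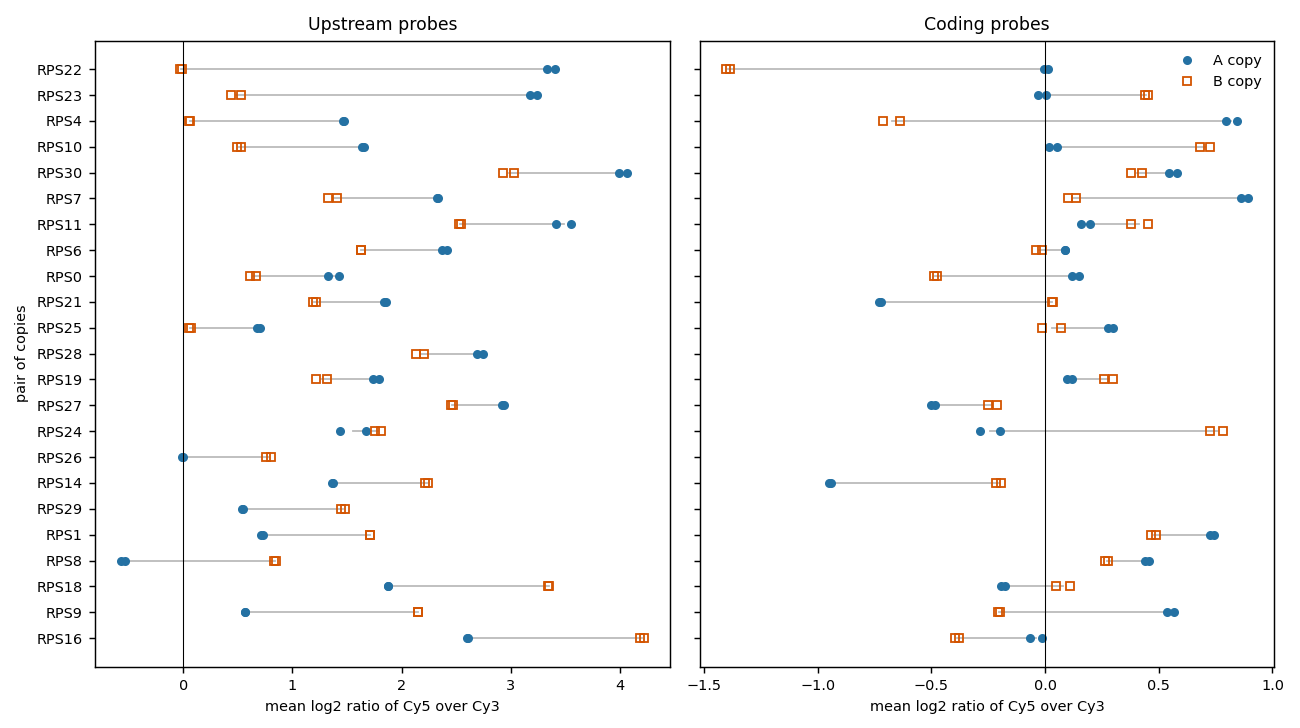
Mean log2 ratio of Cy5 over Cy3 (horizontal axis) of the A copy (filled blue circles) and the B copy (open orange squares) of each of 23 RPS pairs, with 1 point for each array, for upstream probes (left) and coding probes (right), ordered by the upstream difference. A is higher in the upper 14 pairs upstream, with RPS22 at the top, and B in the lower 9, while the order of the coding differences is another one.

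Coding differences between copies were smaller, with a median size of 0.35 over 21 pairs, against 0.42 in the 34 other pairs, and 2 RPS pairs differed by more than 1. A was higher in 12 and B in 9, and all passed (limma), as did 98.2% of 55 such pairs on the array, 49.1% in each direction. RPS4 differed most: RPS4A had 0.79 and 0.84 and RPS4B -0.71 and -0.64, a difference of 1.49. RPS22A had 0.012 and -0.0046 and RPS22B -1.41 and -1.39, a difference of 1.40, which turned to -1.48 after normexp correction. RPS24A had -0.20 and -0.29 and RPS24B 0.73 and 0.78, a difference of -0.996, and RPS7A had 0.86 and 0.89 and RPS7B 0.14 and 0.10, a difference of 0.76. None of these copies overlapped, and across the 21 pairs the coding means of the copies had a Pearson r of 0.057 and a Spearman rho of 0.11.

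Downstream probes were kept at 23 RPS genes, 32 in all. Of these 21 (65.6%) passed above 0 and 7 (21.9%) below, against 56.3% and 38.0% of downstream probes of other genes. Their median was 0.50, against 0.20 in other genes. The highest, downstream of RPS29A, was saturated in Cy5 on both arrays and measured at least 3.05 and 2.95, whereas the upstream mean of RPS29A was 0.54 and 0.55. Downstream of RPS25B 4 of 8 probes measured 1.73 to 2.03, the lowest of them saturated in Cy5 and so a lower bound, and its upstream mean was 0.064. Both genes were singled out after their values were seen.

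The other genes of the cytosolic ribosome, for proteins of the large subunit, the stalk and Asc1, had similar medians. Upstream, 74 of 81 passed above 0 and 7 below, with a median of 1.56, and in the coding region 43 of 77 passed above 0 and 29 below, with a median of 0.11. The upstream minus coding difference had a median of 1.49 over 76 genes. Genes of 12 factors linked to the control of ribosomal protein genes were also listed, of which 10 had upstream probes, with a median of 0.92. Of these 6 passed above 0, led by CKB2, for a subunit of casein kinase 2, with 2.75 and 2.80. CKB1 passed in neither direction, with -0.018 and -0.023, and 3 passed below, with RAP1 lowest at -0.77 and -0.72. RAP1 did not pass after normexp correction (-0.42).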

How the data were processed

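Deposited scanner files of 2 Agilent two-colour tiling arrays were used. The processed intensity of each channel was, per the file headers, background-subtracted, detrended and scaled by 1 dye factor per channel in Agilent Feature Extraction 9.1.3.1. The deposited log10 ratio, per the file headers, is that of processed Cy5 over Cy3. The deposited log2 value table equalled log2 of processed Cy5 over Cy3 to within 5.00e-06, uncentred, with medians of -0.13 on both arrays, so all files give Cy5 over Cy3 the same way round. Which DNA each channel held rests on the labels alone.

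Here log2 ratios were centred on each array's median, with no loess or quantile scaling. Non-uniform spots (174) and probes with Cy3 not well above background (147) were left out. Probe ratios were averaged per gene and region, and fitted with limma 3.58.1 (R 4.3.3), with Benjamini-Hochberg adjustment over the whole table and a threshold of 0.05. The fit was tested on simulated data. With 2 arrays, 1 degree of freedom remains per gene, and the number of arrays limits the precision. Both arrays lay on 1 slide, so no batch could be tested.

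RPS genes were matched in a RefSeq gene table (assembly R64) that served for names, strand and gene order (56 of 56 matched). Members and lists, also the places in the subunit, were chosen with earlier results of these data known. Values were given in full for the 6 highest and 6 lowest upstream means, the 4 highest and 4 lowest coding means, the pairs with the 6 largest and 4 smallest upstream and 4 largest coding differences, and the single-copy genes. Alternatives were normexp correction (offset 50), loess, the uncentred table, stricter and no filters, upstream probes within 500 bp, the nearest probe, and divergent probes left out. No probe sequence was used here. A few members enter the fits, counts and medians but are not reported here by name or drawn in figures.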

Additional observations from a re-analysis of the deposited data

How the results depend on the processing

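The alternatives covered background correction, scaling, spot filters and the choice of upstream probes. Before centring, the median log2 ratio after normexp was -1.49 on replicate 1 and -0.68 on replicate 2, against -0.13 on both as processed. The SD between arrays over all kept probes was 0.39 after normexp and 0.065 as processed, so lost calls and turned signs after normexp come with a wider spread. RPS genes above 0 upstream numbered 53 of 56 as processed, 47 after normexp, 51 after loess and 51 without centring. They numbered 52 of 55 without saturated or dim Cy5, 44 of 51 within 500 bp, 40 of 56 at the nearest probe and 20 of 23 with divergent probes left out. The count below 0, 1 as processed, was 0 after normexp, 5 after loess, 5 without centring, 7 of 51 within 500 bp and 14 of 56 at the nearest probe. Shares of all genes that passed under these alternatives are not given here. The upstream median was 1.37 after normexp, 1.43 after loess, 1.51 without centring, 1.63 without saturated or dim Cy5, 1.87 within 500 bp, 1.62 at the nearest probe, 1.68 with divergent probes left out, and 1.64 to 1.65 leaving out either array. In the coding region normexp left 19 genes above 0 and 9 below, and the median was 0.014 after normexp, 0.031 after loess and -0.021 without centring, which turned its sign, and 0.097 to 0.10 leaving out either array.

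For upstream minus coding, 19 of 21 genes were above 0 with divergent probes left out. The count below 0 was 1 after normexp, 5 after loess, 4 without saturated or dim Cy5, 6 within 500 bp, 10 at the nearest probe and 1 with divergent probes left out. The median was 1.57, 1.35, 1.95, 1.71 and 1.66 after normexp, after loess, within 500 bp, at the nearest probe and with divergent probes left out, and 1.58 to 1.64 leaving out either array. Among A and B pairs upstream, normexp left 0 higher in A and 0 in B, and leaving out divergent probes kept 4 pairs, 3 higher in A and 1 in B.

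Upstream means that turned sign were RPS8A (0.17) and RPS26A (0.48) after normexp, RPS4B (-0.38) and RPS25B (-0.084) after loess, RPS4B (-0.069) and RPS25B (-0.064) without centring, RPS4B (-0.39) and RPS23B (-0.48) both within 500 bp and at the nearest probe, and RPS13 (-0.64) at the nearest probe. Coding means that turned were RPS2 (0.021) and RPS22B (1.26) after normexp, and RPS15 (-0.047) and RPS31 (-0.0036) after loess. Pair differences that turned were RPS24 (0.092) and RPS28 (-0.026) upstream and RPS22 coding (-1.48) after normexp, RPS24 (1.31) within 500 bp, and RPS18 (0.25), RPS24 (1.31) and RPS28 (-0.49) at the nearest probe. The causes were not tested.

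Leaving out coding probes that match the other copy was not run, since no probe sequences were used here. No paired analysis was possible because both arrays form 1 group. The 2 arrays, 1 dye orientation and the coarse starts limit what can be read from these ratios.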
